A study of Mus musculus with 9 samples.

Results

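The cyclins of types A, D and E and the kinases they activate were followed through RNA sequencing of fully grown mouse oocytes held in prophase arrest at the germinal vesicle stage. The family comprised 10 genes chosen by name, namely Ccne1, Ccne2, Ccna1, Ccna2, Ccnd1, Ccnd2, Ccnd3, Cdk2, Cdk4 and Cdk6, out of 24255 rows in the deposited table, and all 10 were found. No level or fold threshold entered the choice of names, but the family was selected on earlier results from the same 9 FPKM columns. It was proposed with results in view in which Ccne2 stood among the genes called higher in MG than in MZ. Values of Ccne2 are therefore a description, printed without a p-value. It enters the counts and medians of members below as a result of that choice, and those counts and medians support nothing further.

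Females of 3 genotypes on a C57BL/6 background were studied, with 3 libraries in each. MG oocytes carried a conditional Mtor allele deleted by Cre under the Gdf9 promoter. MZ oocytes carried it deleted by Cre under the Zp3 promoter. WT oocytes were the wild-type comparison. Both promoters drive Cre in the oocyte and not in the follicle cells, Gdf9 already in small follicles and Zp3 once the oocyte grows. All females received 5 IU of PMSG, a gonadotropin that stimulates follicles, and oocytes were collected 46 h later. The sample labels give an age of 6 months and the series design gives 23 days, so the age is unsettled. The labels do not say whether the libraries of a group are separate animals or how many oocytes each held, so p-values measure the spread between libraries, which may be technical.

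Cyclins are regulatory subunits that bind and activate cyclin-dependent kinases. In somatic cells D cyclins with Cdk4 and Cdk6 phosphorylate the retinoblastoma protein, E cyclins with Cdk2 then start DNA replication, and A cyclins act through S phase and into division. A fully grown oocyte does not replicate its DNA and stores much of its RNA untranslated, so a transcript level there is a stock and not a measure of kinase activity. mTOR, the kinase encoded by the targeted gene, promotes translation of D cyclins in proliferating cells.

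The values are FPKM, fragments per kilobase of transcript scaled by library depth, which allow levels of genes of different length to be compared. In a 1 kb transcript 1 fragment was worth 1.32 FPKM in the deepest library (MG 3) and 2.36 FPKM in the shallowest (MG 1 and MZ 1). Library sums of FPKM were 428329 to 554305 in MG, 657851 to 677618 in MZ and 584503 to 718684 in WT. The MG sums lay below all others, and the lowest was that of MG 3. All 10 oocyte markers were listed above 0 in every library, with summed levels of 10080 to 24430 FPKM in MG, 24860 to 26070 in MZ and 20280 to 23830 in WT. Of 16 granulosa and cumulus markers, Foxl2, Amhr2 and Lhcgr were listed at 0 in all 9 libraries, while Cyp19a1 read 8.03 to 25.7 FPKM. The summed level of the 16 was 22.04 to 39.4 FPKM in MG, 24.0 to 28.3 in MZ and 20.3 to 33.6 in WT. The 8 theca and stroma markers summed to 16.54 to 27.8 FPKM in MG, 11.65 to 48.09 in MZ and 16.97 to 25.07 in WT. Among them Acta2 was at 0 throughout and Dcn read 8.34 to 31.3 FPKM. The 5 blood and immune markers summed to 25.63 to 136.5 FPKM in MG, 18.48 to 167.7 in MZ and 40.95 to 51.72 in WT. Lyz2, 1 of these, read 16.3 to 148.5 FPKM. Mtor read 5.25, 6.00 and 4.64 FPKM in MG, 6.55, 4.67 and 4.39 in MZ, and 3.25, 3.33 and 2.95 in WT. Every MG and every MZ library was thus above every WT library for Mtor. Of all tested genes 21.5% had no overlap in either direction for MG against WT, and 12.2% for MZ against WT. A whole-gene FPKM includes exons outside the deleted part and so does not check the deletion.

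Cyclin E2, encoded by Ccne2, was the member whose levels parted the 3 genotypes. It lies on chromosome 4 (11191351 to 11204779, GRCm38, plus strand, 12 exons in its longest coding transcript). Its level was 26.7, 29.1 and 26.7 FPKM in MG, 6.90, 8.51 and 6.70 FPKM in MZ, and 12.6, 11.6 and 14.5 FPKM in WT. Every MG library was above every WT library, every MZ library was below every WT library, and no groups overlapped. The group means were 27.5 ± 1.40 FPKM in MG, 7.37 ± 1.00 in MZ and 12.9 ± 1.48 in WT (SD, n = 3 each). In linear terms the MG mean was 2.13 times the WT mean, the MZ mean was 0.572 times the WT mean, and the MG mean was 3.73 times the MZ mean. Differences were fitted on a scale of log2(FPKM + 1), where changes of low genes come out too small. For Ccne2 they were 1.04 ± 0.23 for MG against WT, -0.73 ± 0.23 for MZ against WT and 1.77 ± 0.23 for MG against MZ (SE of the limma fit). In such bulk oocyte libraries less RNA of a gene per cell and a different make-up of the cells cannot be told apart.

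About 142 fragments in MG, 36 in MZ and 53 in WT lay behind the Ccne2 means, summed over 3 libraries and estimated from transcript length. Ints8, an Integrator subunit gene on the opposite strand, shares 336 of the 3200 exonic bases of the coding transcripts of Ccne2, and the use of strand in counting was not stated in the labels or headers. Ints8 itself read 0, 0.98 and 2.05 FPKM in MG, 0, 0.81 and 0 in MZ, and 0, 0 and 1.24 in WT. These are far below Ccne2 in every library. The oocyte markers did not follow the Ccne2 pattern. For MG against WT 1 of 10 was positive and 9 were negative (median -0.34). For MZ against WT 8 were positive and 2 negative (median 0.32). Of these markers 0 passed the limma test, beside 0.343% and 0.037% of all tested genes in those comparisons.

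Cyclin E1, encoded by Ccne1 on chromosome 7 (38097984 to 38107534, minus strand), is the closest relative of cyclin E2 and binds the same kinase. The stretch where their coding sequences are most alike is shown, because it bears on whether reads of the pair could be exchanged. It covers 60 bases, counted from 554 in the Ccne2 coding sequence and from 557 in that of Ccne1, in the GENCODE M21 transcripts on GRCm38, each written 5′ to 3′ along the transcript with the differing bases in capitals.
Ccne2: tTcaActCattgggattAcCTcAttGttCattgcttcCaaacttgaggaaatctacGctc
Ccne1: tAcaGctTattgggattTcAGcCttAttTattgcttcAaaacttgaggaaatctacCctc
Within this most similar stretch 49 bases were identical (81.7%) and 11 differed, while the reads were 150 bases long. Among the longest coding transcripts of all 10 members no pair shared an identical run of more than 20 bases.

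Ccne1 was low. It read 7.52, 6.77 and 4.2 FPKM in MG, 2.51, 0 and 2.0 in MZ, and 0, 3.56 and 3.69 in WT. The 3 MG libraries were above all MZ and all WT libraries, and the MZ and WT libraries overlapped. The log2 difference was 1.34 ± 0.66 for MG against WT, with a limma adjusted p of 0.33, and 1.68 ± 0.66 for MG against MZ, with a limma adjusted p of 0.21. Calls needed an adjusted p under 0.05, which neither had. For MZ against WT the difference was -0.34 ± 0.66, with a limma adjusted p of 0.95. About 20 fragments in MG, 4 in MZ and 6 in WT stand behind these values.

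**Figure D1:**
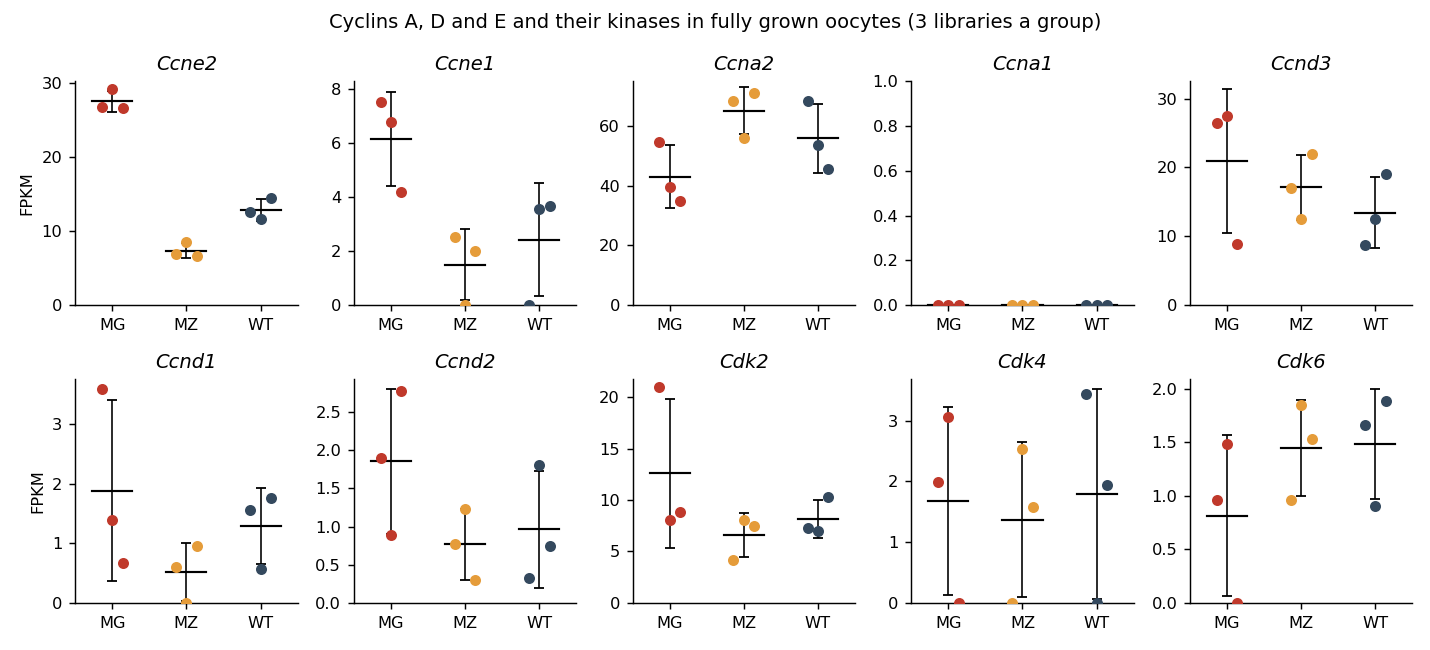
FPKM of the 10 genes in MG, MZ and WT oocytes, each panel with its own linear axis from 0; points are libraries, the long bar is the group mean and the whiskers are the SD (n = 3). Ccne2 separates all 3 groups with 26.7 to 29.1 FPKM in MG, 6.70 to 8.51 in MZ and 11.6 to 14.5 in WT, and Ccna1 is at 0 throughout.

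Taking both E cyclins together, the summed level was 33.7 ± 2.56 FPKM in MG, 8.87 ± 0.47 in MZ and 15.3 ± 2.82 in WT (SD, n = 3 each). Ccne2 supplied 78.0 to 86.4% of that sum in MG, 73.3 to 100% in MZ and 76.5 to 100% in WT. The shares of 100% were those of MZ 2 and WT 1, where Ccne1 read 0. The shares overlapped among the genotypes. They rest on about 20, 4 and 6 Ccne1 fragments in MG, MZ and WT, so they cannot show whether the division between E2 and E1 changed. The total did not overlap, but it is mostly Ccne2 and is not separate evidence of its difference. Per 1000000 of a library's own FPKM sum, which removes differences in that sum, Ccne2 was 48.2 to 62.2 in MG, 10.2 to 12.6 in MZ and 17.5 to 22.2 in WT, in the same order without overlap.

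Cyclin A2, encoded by Ccna2 on chromosome 3 (36564865 to 36572150, minus strand), had the highest mean of the family in each genotype. Its WT mean was above that of 86.4% of the genes tested. The libraries read 54.7, 39.6 and 34.8 FPKM in MG, 68.2, 56.0 and 70.8 in MZ, and 68.1, 53.5 and 45.6 in WT. The MG range lay wholly below the MZ range by a narrow margin, and both ranges overlapped that of WT. For MG against MZ the log2 difference was -0.60 ± 0.23 (limma adjusted p = 0.20). Against WT the MG difference was -0.37 ± 0.23, with a limma adjusted p of 0.43. The MZ difference from WT was 0.23 ± 0.23, with a limma adjusted p of 0.90. When libraries were brought to a common FPKM sum the MG against WT difference of Ccna2 became 0.009, where the median of all tested genes moved to 0.36. Exosc9, an exosome subunit gene on the opposite strand, shares 510 of the 3627 exonic bases of Ccna2 and read at most 1.64 FPKM.

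Cyclin A1, encoded by Ccna1 on chromosome 3 (55045469 to 55055501, minus strand), is the A-type cyclin of the male germ line in mice, where its loss arrests spermatocytes. It was listed at 0 in all 9 libraries and was not tested. With no deposited counts, no upper limit can be given for it.

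The ratio of Ccne2 to Ccna2 within a library does not depend on how the library was scaled. It was 0.489, 0.736 and 0.766 in MG, 0.101, 0.152 and 0.0946 in MZ, and 0.184, 0.217 and 0.318 in WT. As with Ccne2 alone, MG was highest, MZ lowest and no groups overlapped. Of the summed FPKM of the 10 genes, Ccna2 made up 33.6 to 40.1% in MG, 61.7 to 67.5% in MZ and 45.9 to 65.7% in WT. The E cyclins made up 23.7 to 35.6% in MG, 7.68 to 9.39% in MZ and 12.1 to 18.3% in WT. Since Ccne2 enters each of these quantities, they describe its difference on other scales and are not separate evidence of it.

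**Figure D2:**
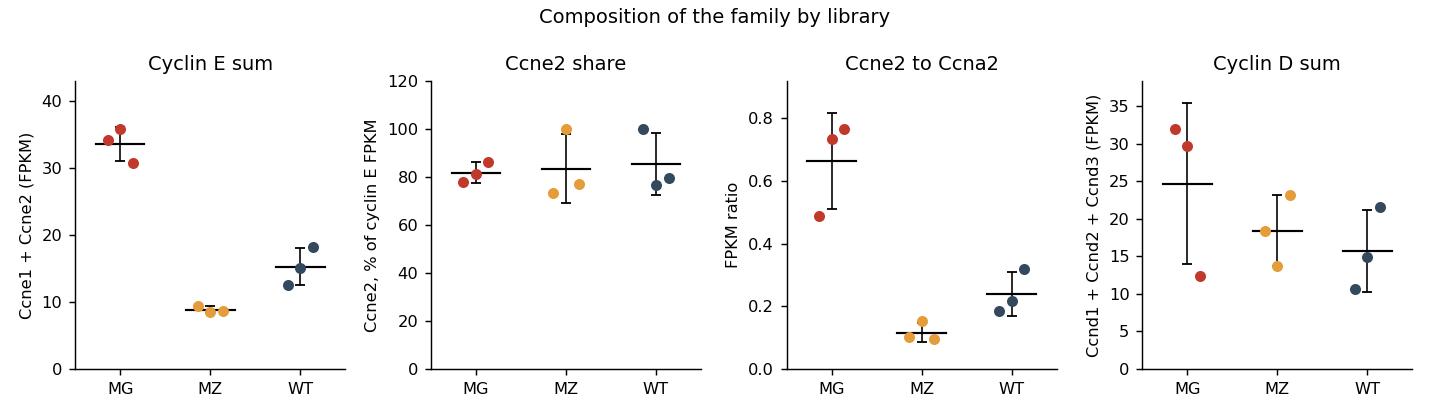
Make-up of the family in each library of MG, MZ and WT: the sum of Ccne1 and Ccne2 in FPKM, the percentage of that sum from Ccne2, the FPKM ratio of Ccne2 to Ccna2, and the sum of the D cyclins in FPKM; points are libraries, the bar is the mean and whiskers are the SD (n = 3). The cyclin E sum and the ratio to Ccna2, which both contain Ccne2, part the groups. The ratio is 0.489 to 0.766 in MG, 0.0946 to 0.152 in MZ and 0.184 to 0.318 in WT. The Ccne2 share and the cyclin D sum overlap.

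Of the D cyclins, which couple growth signals to Cdk4 and Cdk6, Ccnd3 was the main transcript of the oocyte. It lies on chromosome 17 (47505051 to 47599691, plus strand). It read 26.5, 27.4 and 8.88 FPKM in MG, 17.0, 12.5 and 21.9 in MZ, and 8.76, 12.6 and 19.0 in WT. The groups overlapped, and MG 3 was far below the other MG libraries. The log2 differences were 0.51 ± 0.43 for MG against WT, 0.36 ± 0.43 for MZ against WT and 0.16 ± 0.43 for MG against MZ. Their limma adjusted p values were 0.57, 0.90 and 0.89 in that order. Without MG 3 the MG against WT difference of Ccnd3 was 1.01, with a limma adjusted p of 0.24. Bysl, which encodes bystin and lies on the opposite strand, shares 361 of 2772 exonic bases with Ccnd3 and read 4.67 to 7.42 FPKM in MG, 3.13 to 6.92 in MZ and 5.75 to 8.29 in WT.

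Ccnd1 and Ccnd2 were near the floor of the assay. Ccnd1, on chromosome 7 (144929931 to 144939925, minus strand), shares 1100 of its 3740 exonic bases with a gene on the opposite strand and read 3.58, 1.38 and 0.67 FPKM in MG, 0.60, 0 and 0.95 in MZ, and 1.55, 0.57 and 1.76 in WT. Ccnd2, the D cyclin on which follicle-stimulating hormone relies to make granulosa cells divide, lies on chromosome 6 (127125162 to 127152193, minus strand) and read 1.91, 0.89 and 2.78 FPKM in MG, 0.77, 1.23 and 0.30 in MZ, and 0.33, 1.81 and 0.75 in WT. For each gene the MG libraries overlapped both other groups, on about 10, 3 and 6 fragments for Ccnd1 and 21, 8 and 8 for Ccnd2 in MG, MZ and WT. The limma adjusted p for MG against WT was 0.84 for Ccnd1 and 0.57 for Ccnd2.

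The granulosa markers bear on Ccnd2 because of its role there. Of the 16, 6 passed the filter and 0 passed the test in any comparison, beside at most 0.343% of all tested genes. For MG against WT 4 of the 6 were positive and 2 negative, with a median log2 difference of 0.73 beside 0.04 for all tested genes. Kitl read 2.51 to 6.36 FPKM in MG, 1.82 to 3.55 in MZ and 0.35 to 1.15 in WT, while Cyp19a1 read 8.03 to 18.0 in MG, 14.1 to 15.5 in MZ and 16.5 to 25.7 in WT. The markers thus did not move one way, and their part in the Ccnd2 values was not tested.

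Together the D cyclins summed to 24.7 ± 10.7 FPKM in MG, 18.4 ± 4.74 in MZ and 15.7 ± 5.48 in WT (SD, n = 3 each). Ccnd3 made up 72.0 to 92.4% of that sum in MG, 91.0 to 94.6% in MZ and 82.3 to 88.4% in WT. The differences in the sum were smaller than the SD of the MG libraries.

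Among the kinases Cdk2, the partner of E and A cyclins, was the one with a clear level. Mice without Cdk2 are sterile in both sexes through failure of meiotic prophase. The gene lies on chromosome 10 (128697939 to 128705031, minus strand) and read 20.9, 8.09 and 8.79 FPKM in MG, 4.2, 8.07 and 7.51 in MZ, and 7.25, 6.95 and 10.3 in WT. The high MG mean came from MG 1, and the other MG libraries lay inside the WT range. The lowest MG value exceeded the highest MZ value by a margin far inside the spread. For Cdk2 the log2 differences were 0.47 ± 0.39 for MG against WT, -0.29 ± 0.39 for MZ against WT and 0.76 ± 0.39 for MG against MZ. The limma adjusted p values were 0.58, 0.91 and 0.34 in the same order. Without MG 1 the MG against WT difference of Cdk2 was 0.06. The summed level of 5 blood and immune markers was also higher in MG 1, at 136.5 FPKM, than in the other MG libraries, at 41.2 and 25.6, but MZ 3 had 167.7 FPKM of them with a Cdk2 level of 7.51. The part of such cells in the Cdk2 values was not tested. The cyclin E sum per Cdk2 was 1.63 to 4.44 in MG, 1.05 to 2.24 in MZ and 1.73 to 2.18 in WT, and these overlapped.

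Cdk4 and Cdk6, the partners of D cyclins, had low levels. Cdk4, also on chromosome 10 (127063534 to 127067920, plus strand), read 1.98, 3.05 and 0 FPKM in MG, 0, 2.54 and 1.58 in MZ, and 3.43, 0 and 1.94 in WT, with 1 library at 0 in each group and about 5 fragments a group. Tspan31, a tetraspanin gene on the opposite strand, shares 641 of 2405 exonic bases with Cdk4 and read 17.4 to 46.9 FPKM over the 9 libraries, far above Cdk4. Cdk6, on chromosome 5 (3341485 to 3531008, plus strand), read 0.96, 1.48 and 0 FPKM in MG, 0.96, 1.85 and 1.53 in MZ, and 1.66, 0.91 and 1.88 in WT. The groups overlapped for both genes, and neither passed (limma adjusted p = 0.99 for Cdk4 and 0.57 for Cdk6, MG against WT).

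The order of levels was read within each genotype, calling neighbours apart where their libraries did not overlap. In MG it ran Ccna2, Ccne2, Ccnd3, Cdk2, Ccne1 and then the scarce genes, and Ccne2 was not apart from Ccnd3 nor Ccnd3 from Cdk2. In MZ it ran Ccna2, Ccnd3, Ccne2, Cdk2 and Ccne1, and Ccne2 was not apart from Cdk2. WT kept the order of MZ, with Ccnd3 and Ccne2 not apart. Ccne1 was apart from the gene below it in MG, but overlapped it in MZ (Cdk6) and in WT (Cdk4). Ccna2 was apart from the gene below it in all 3 groups. Below Ccne1 the genes Ccnd1, Ccnd2, Cdk4 and Cdk6 were not apart from one another as neighbours in any group. Ccne2 stood above 77.8% of tested genes in MG, 53.2% in MZ and 64.1% in WT.

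Over all genes, 10801 passed the filter of at least 1 FPKM in at least 3 libraries, and 9 of the 10 members did. For MG against WT 37 genes passed (0.343%), of which 0 were members. Leaving Ccne2 aside, no member had a limma unadjusted p under 0.05, beside 17.7% of all tested genes. For MZ against WT 4 genes passed (0.037%), of which 0 were members. Again leaving Ccne2 aside, no member had a limma unadjusted p under 0.05, beside 6.3% of all tested genes. For MG against MZ 14 genes passed (0.13%), of which 1 was a member, Ccne2, by the contrast in which it had been singled out. Of the other members Ccne1 and Ccna2 had a limma unadjusted p under 0.05, beside 17.6% of all tested genes. The calls were 20 higher and 17 lower for MG against WT and 8 higher and 6 lower for MG against MZ, but 61 and 5, and 25 and 6, after libraries were brought to a common FPKM sum. MG and MZ were compared with the same WT libraries, so these comparisons share data. Without any 1 of MG 2, MG 3, MZ 1, MZ 2, MZ 3 or WT 3 the count of members for MG against MZ was 0, although the Ccne2 difference stayed between 1.72 and 1.87.

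Groups without overlap were found for 2 of the 9 members in MG against WT (Ccne1 and Ccne2, each higher in MG), beside 21.5% of all tested genes. In MG against MZ they were found for 4 of 9, with Ccne1, Ccne2 and Cdk2 higher and Ccna2 lower in MG, beside 25.2% of all tested genes. In MZ against WT it was 1 of 9 (Ccne2, lower in MZ), beside 12.2%. The median log2 difference of the 9 was 0.47 for MG against WT, -0.17 for MZ against WT and 0.67 for MG against MZ, where all tested genes had 0.04, 0.01 and 0.04. Ccne2, on whose values the family was proposed, is among the 9. These medians are therefore a description and cannot show whether the family shifted.

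**Figure D3:**
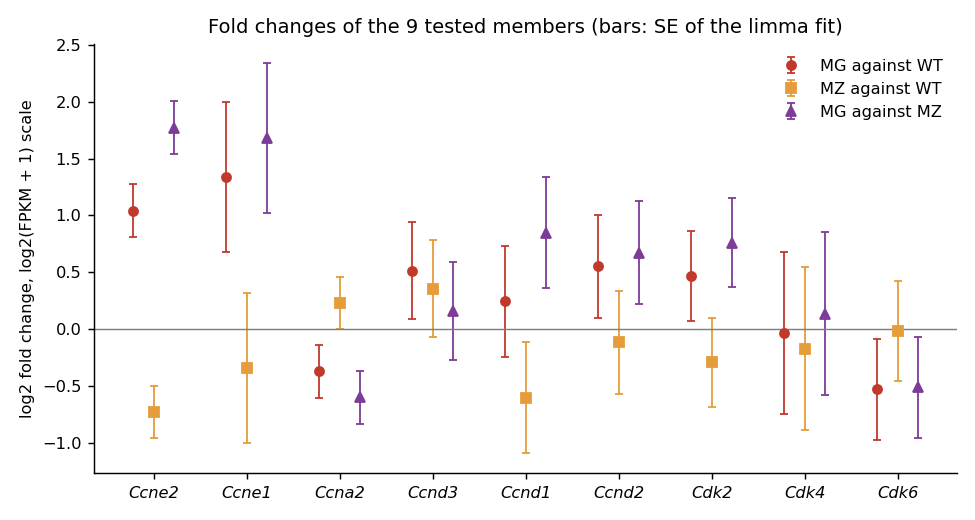
Log2 fold changes of the 9 tested members for MG against WT (circles), MZ against WT (squares) and MG against MZ (triangles) on the log2(FPKM + 1) scale, with bars for the SE of the limma fit. Ccne2 reads 1.04, -0.73 and 1.77 with an SE of 0.23 each, and the bars of Cdk4 and Ccne1 are the widest at 0.72 and 0.66.

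In the authors' deposited table Ccne2 has a log2 fold change of 1.09 for MG over WT, -0.80 for MZ over WT and -1.89 for MZ over MG. The authors' deposited table also lists Ccna2 at 0.61 for MZ over MG with q = 0.021, a gene that did not pass in the limma fit. For Ccne1, Ccnd1, Ccnd2, Cdk2, Cdk4 and Cdk6 the authors' deposited table holds p and q of 1 in all 3 comparisons. Such entries can stand for genes that were not tested, so they are not read as a lack of difference.

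The 5 genes whose pattern over the 9 libraries was most like that of Ccne2 were found by Pearson r of log2(FPKM + 1) and leaving out clone names. They were Rlf, a zinc finger gene (r = 0.97), Sema4b, a semaphorin (0.97), Ptprf, a receptor tyrosine phosphatase (0.96), Rnf19a, a ubiquitin ligase (0.95), and Wdr13, a WD repeat gene (0.95). Rnf19a had the highest level of them, at 13.1 ± 2.44 FPKM in MG, 5.04 ± 0.66 in MZ and 7.84 ± 1.73 in WT (SD, n = 3 each). Ptprf had 5.87 ± 0.37 FPKM in MG, 2.21 ± 0.19 in MZ and 3.26 ± 0.45 in WT. The 9 points fall into 3 genotypes, so these values describe a shared order of groups and carry no test.

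The rest of the pathway was read from 6 lists, and 0 of their 73 tested genes passed the limma test in any of the 3 comparisons. Of all tested genes only 0.343% passed for MG against WT, 0.037% for MZ against WT and 0.13% for MG against MZ. With so few calls over all, the 0 does not show that the pathway was unchanged. Of the inhibitors of cyclin-dependent kinases, 6 of 7 were tested, and 5 were positive and 1 negative for MG against WT (median 0.38), beside 2 and 4 for MZ against WT (median -0.40). Cdkn2b, an INK4 inhibitor of Cdk4 and Cdk6, read 1.91, 5.88 and 2.13 FPKM in MG, 0, 0 and 1.52 in MZ, and was listed at 0 in all 3 WT libraries. It met the filter on low values only through its MG libraries, so no p is given for it. The counts and medians of the inhibitors include Cdkn2b, so they are a description and support nothing further. Cdkn2c, a second inhibitor of that type, averaged 9.84 ± 2.72 FPKM in MG, 2.78 ± 1.25 in MZ and 3.53 ± 3.29 in WT (SD, n = 3 each; limma adjusted p = 0.17 for MG against WT). The MG libraries of Cdkn2c were above all others, by a narrow margin over 1 WT library, and it did not pass.

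Of the retinoblastoma and E2F factors, which the kinases control, 11 of 13 were tested, with 6 positive and 5 negative for MG against WT (median 0.18) and 5 and 6 for MZ against WT (median -0.12). E2f5, an E2F of the repressor class, was the most abundant, at 368 ± 69.9 FPKM in MG, 639.8 ± 90.1 in MZ and 590 ± 171 in WT (limma adjusted p = 0.18 for MG against WT and 0.11 for MG against MZ). E2f6, a repressor that does not bind retinoblastoma proteins, had 2.94 ± 0.94 FPKM in MG, 0.26 ± 0.45 in MZ and 0.91 ± 0.06 in WT. It met the filter only through its MG libraries, so no p is given for it. The counts and medians of these factors include E2f6, so they too are a description. The MG libraries of E2f5 were below all MZ and WT libraries, and it did not pass.

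Genes for replication licensing and S phase, which E2F factors drive in cycling cells, had 15 of 16 tested, with 7 positive and 8 negative in each of the 3 comparisons. Their medians were -0.04 for MG against WT, -0.03 for MZ against WT and -0.03 for MG against MZ. Cdt1, a licensing factor, had 42.1 ± 7.53 FPKM in MG, 61.3 ± 5.13 in MZ and 54.6 ± 12.9 in WT. Mcm7, a subunit of the replicative helicase, had 7.05 ± 1.76 FPKM in MG, 7.94 ± 0.97 in MZ and 11.3 ± 1.72 in WT. Neither passed (limma adjusted p = 0.22 for Cdt1 in MG against MZ and 0.28 for Mcm7 in MG against WT).

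The genes for turnover of E and D cyclins, with 9 of 10 tested, had a median of -0.02 for MG against WT and -0.09 for MZ against WT. Gsk3b, a kinase that marks D and E cyclins for destruction, read 6.78, 10.9 and 33.8 FPKM in MG, 2.10, 2.86 and 3.96 in MZ, and 1.35, 4.22 and 2.56 in WT (limma adjusted p = 0.11 for MG against WT). All MG libraries were above all others, and MG 3 was by far the highest. Cul3, a ubiquitin ligase scaffold used for cyclin E, had 10.7 ± 2.09 FPKM in MG, 5.56 ± 2.62 in MZ and 8.59 ± 1.89 in WT (limma adjusted p = 0.21 for MG against MZ).

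Kinase activators and adaptors, with 9 of 10 tested, had a median of 0.05 for MG against WT, 0.22 for MZ against WT and -0.30 for MG against MZ. Cks1b, a small subunit of cyclin-dependent kinases, had 382 ± 56.8 FPKM in MG, 537 ± 0.68 in MZ and 556 ± 139 in WT (limma adjusted p = 0.21 for MG against WT). Cdc25a, a phosphatase that activates Cdk2, had 19.6 ± 2.35 FPKM in MG, 17.4 ± 3.73 in MZ and 14.7 ± 2.82 in WT (limma adjusted p = 0.44 for MG against WT).

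The remaining cyclins and kinases, all 23 tested, had 15 positive and 8 negative for MG against WT (median 0.06) and 12 and 11 for MZ against WT (median 0.14). Cyclin G1, encoded by Ccng1, a target of p53, read 5.23, 2.53 and 7.70 FPKM in MG, 1.97, 1.68 and 2.09 in MZ, and 0.57, 1.24 and 1.28 in WT (limma adjusted p = 0.12 for MG against WT). Cyclin O, encoded by Ccno and best known for multiciliated cells, averaged 527 ± 372 FPKM in MG, 1484 ± 83.0 in MZ and 950.2 ± 575 in WT (SD, n = 3 each; limma adjusted p = 0.11 for MG against MZ). Its WT libraries ran from 614 to 1614 FPKM, which spans the MZ values.

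**Figure D4:**
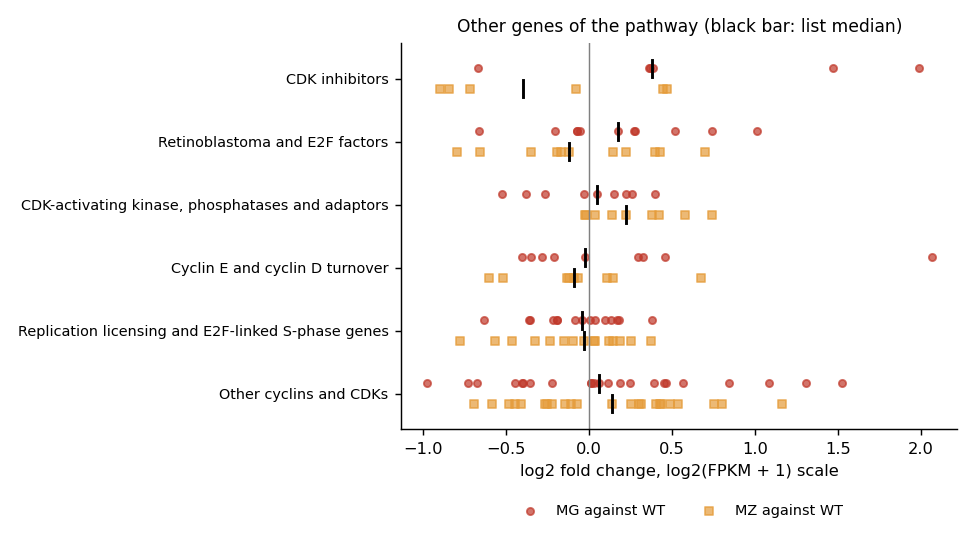
Log2 fold changes of the tested genes in the 6 pathway lists for MG against WT (circles) and MZ against WT (squares) on the log2(FPKM + 1) scale; each point is a gene and the black bar is the list median. Medians run from -0.04 to 0.38 for MG against WT and from -0.40 to 0.22 for MZ against WT. Of the plotted genes 0 passed the limma test, beside 0.343% and 0.037% of all tested genes in those comparisons. Cdkn2b and E2f6 are among the plotted genes and met the filter only through their MG libraries.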

How the data were processed

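RNA of oocytes was amplified by Smart-seq2 and made into libraries with a NEBNext Ultra kit, per the labels' protocols. Smart-seq2 primes on the poly(A) tail, so tail length may enter the levels, which was not tested. Reads were aligned to mm10 with TopHat2 2.0.13 and FPKM computed with Cufflinks 2.2.1, per the submitters' processing notes. The authors deposited 1 FPKM value for each gene in each library. The authors also deposited log2 fold changes, p-values and q-values from Cuffdiff, with the group named later over that named first.

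Of 24255 rows, 27 had a date for a symbol and were left out. Coordinates come from GENCODE M21. Fragment numbers were estimated from the steps between low FPKM values, using 2220 single-transcript genes (minimum length 1500 bp), and are approximate. They cover counting error only, since amplified reads are not independent molecules.

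Values were taken as log2(FPKM + 1), filtered at 1 FPKM in at least 3 of 9 libraries, and analysed by limma 3.58.1 (R 4.3.3), with all 9 libraries in 1 fit, a variance trend and 6 residual degrees of freedom. Benjamini-Hochberg adjustment ran over all 10801 genes within each comparison, two-sided, with a threshold of 0.05. The fit was tested on simulated data. The members and lists were chosen with earlier results of these data known. Named genes are the members, Mtor, overlapping genes, the 5 genes most like Ccne2, and per list the genes that passed or else the 2 with the smallest p. Alternatives covered pseudocount, filter, scaling, variance trend, libraries in the fit, a replicate block and leaving out each library.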

Additional observations from a re-analysis of the deposited data

Results flagged for a closer look

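Ccne2 differed between the early and the later deletion in its change against WT. The difference, MG minus MZ, was 1.77 on the log2(FPKM + 1) scale, with every MG library above every WT library and every MZ library below every WT library. This is the contrast in which the gene had been singled out, so the value is a description.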

How the results depend on the processing

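Leaving Ccne2 aside, no member was called in any comparison under the 10 alternatives other than leaving out a library. Ccne2, on whose values the family was proposed, stayed among the calls for MG against MZ under each of them. That restates the choice of the family and is not separate support. Scaling to the same FPKM sum also placed Ccne2 among the calls for MG against WT. There the median of all tested genes moved to 0.36 and Ccne2 to 1.42, and Ccna2 (0.009) and Cdk4 (0.14) changed sign for MG against WT. Quantile normalization turned Ccnd1 to -0.069 for MG against WT. Leaving out each library in turn, the member count ranged from 0 to 1 for MG against MZ, whose cause was not tested. The member counted there was always Ccne2. For the other comparisons the count was 0. Fold changes that changed sign in such fits were those of scarce or overlapping genes. For MG against WT, Ccnd1 ran from -0.16 to 0.57 and Cdk4 from -0.65 to 0.56. For MZ against WT, Ccne1 ran from -1.08 to 0.22, Ccnd2 from -0.36 to 0.18, Cdk4 from -0.79 to 0.36 and Cdk6 from -0.20 to 0.13. For MG against MZ, Ccnd3 ran from -0.10 to 0.66 and Cdk4 from -0.40 to 0.73. Over all genes the 19 alternatives called 3 to 66 genes for MG against WT (37 in the reported fit), 0 to 7 for MZ against WT (4) and 0 to 213 for MG against MZ (14). Without 1 library, MG against WT gave 3 to 23 calls, except 32 without MG 1. MG against MZ gave 210 without MG 1, 213 without WT 1, 9 without WT 2 and 0 to 3 without any other, and MZ against WT gave 0 to 2, except 6 without MG 1 and 3 without WT 2.

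The replicate block gave 0 members for MG against WT, 0 for MZ against WT and 1 (Ccne2) for MG against MZ. Over all genes 13, 0 and 159 were called in that order. Same-numbered libraries of different groups had correlations of -0.07 to 0.07 in their deviations from the group means. Differently numbered libraries had -0.114 to 0.082. The numbers thus gave no sign of pairing, but such correlations cannot exclude it. Ccnd1, Ccnd2, Ccne1 and Cdk4 rest on about 3 to 21 fragments a group, which limits their precision.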
